A study of Homo sapiens with 18 samples.

Results

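DNA:RNA hybrids were mapped at 47 genes of the DNA damage response and DNA repair in HCT116 cells, a human colorectal carcinoma line, by DRIP-seq. The genes were taken from a list of named signalling, recombination, end joining, base excision, Fanconi, helicase, mismatch and nucleotide excision repair genes, and all 47 were found among the 19748 protein-coding genes on chromosomes 1 to 22 and X of GENCODE release 44 on GRCh37 (hg19). Each gene was divided into the 4 kbp centred on the transcription start site (TSS) of its canonical transcript, the rest of the transcript (the body) and the 5 kbp past its 3′ end. A gene was counted as carrying a peak in a window when at least 1 bp of a called peak lay in it. It was said to gain a peak when both CPT libraries and neither NT library held one, and to lose it in the reverse case.

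The cells were untreated (NT) or exposed to 10 μM camptothecin (CPT), a poison that traps topoisomerase I on DNA, for 5 or 60 min. Each treatment had 2 biological replicates. From each, a library was made of DNA precipitated with the hybrid-specific antibody S9.6 (DRIP), of DNA digested with RNase H before the precipitation (RNase H), and of input. The 12 peak lists of the DRIP and RNase H libraries were examined. All samples came from the same cell line, and no other genetic change was given in the labels.

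An R loop is a stretch of DNA in which nascent RNA pairs with its template and leaves the other strand unpaired. R loops form behind elongating RNA polymerase, most readily where the RNA is rich in G, and topoisomerase I normally relaxes the negative supercoils that favour them. Camptothecin leaves topoisomerase I covalently bound to a nick, and the products of the genes described here sense, signal and mend the breaks that follow. The data describe hybrids on the repair genes themselves, not the activity of their proteins.

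The DRIP lists held 30314 to 72879 peaks, and the replicate 2 list was the longer in each treatment. The RNase H lists held 473 to 15790 peaks in NT cells and in replicate 1 of both CPT treatments, but 50353 and 67188 peaks in replicate 2 of CPT at 5 and 60 min. These 2 RNase H libraries stood apart, so results are given per replicate. Neither read counts nor a spike-in factor accompany the lists, so a missing peak means that none passed the calling threshold in that library. The genes have a median length of 47403 bp, against 22454.5 bp over all coding genes, and a longer body can carry a peak more often.

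The restriction enzymes that cut the DNA before precipitation set many of the peak borders. Hind III (AAGCTT), Eco RI (GAATTC), Xba I (TCTAGA), Ssp I (AATATT) and Bsr GI (TGTACA) read the same on both strands, and at least 1 of these sites lay in the 4 kbp TSS window of all 47 genes and of 96.6% of all coding genes. In the 6 DRIP lists, 29.7% to 36.9% of the edges of peaks on the repair genes fell within 1 base of a site, whereas 1.47% of the bases of their transcripts lie that close to one. At 13 of the 47 genes at least 1 DRIP list held a peak that ran from site to site across the TSS. The ends of such peaks are shown for *XRCC2*, *ERCC4* and *ERCC6*, and the borders found in all 6 DRIP lists for *XRCC3* and *FANCA*, because the extent of the hybrids at these genes can be read only to the nearest cut. The sequences are from the plus strand of GRCh37, 5′ to 3′, and capitals mark the restriction site.
XRCC2, in an intron, chr7:152372077-152372106, Ssp I: ctgcaaagcctaAATATTtaccacatggcc
XRCC2, upstream of the TSS, chr7:152374079-152374108, Ssp I: tttctcatgggtAATATTaaagttgctcat
ERCC4, upstream of the TSS, chr16:14013539-14013568, Ssp I: tggcgcatttggAATATTgaccagtaactt
ERCC4, in an intron, chr16:14016845-14016874, Ssp I: tatatttcctaaAATATTtagttttcctcc
ERCC6, in an intron, chr10:50744655-50744684, Bsr GI: gaataaatgtccTGTACAagagaaaaggga
ERCC6, upstream of the TSS, chr10:50747608-50747637, Bsr GI: cctgcttacatgTGTACAttgccttaagtc
XRCC3, upstream of the TSS in an intron of ZFYVE21, chr14:104183382-104183411, Hind III: ctgggttcattgAAGCTTggttggaggcct
FANCA, in an intron, chr16:89847385-89847414, Ssp I: aaaattatattaAATATTttcacctaacac

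*XRCC2*, a gene of homologous recombination (ENSG00000196584, chr7:152341861-152373226, minus strand), showed this most plainly. Its TSS peak was 2002 bp wide in NT, CPT 5 min and CPT 60 min of replicate 2, from the Ssp I site at position 1134 to the Ssp I site at position -867, counted in bp from the TSS along transcription. The upstream border was shared by 5 of 6 DRIP lists. At *ERCC4*, the nuclease subunit XPF (chr16:14014011-14046205, plus strand), the same 3306 bp fragment was called whole in NT and CPT 5 min of replicate 2. At *ERCC6*, the CSB ATPase of transcription-coupled repair (chr10:50662516-50747167, minus strand), neither NT list held a TSS peak, and the 2957 bp Bsr GI fragment was called whole in replicate 2 of CPT 60 min. The same *ERCC6* fragment was called whole in the RNase H library of that replicate.

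Within 2 kbp of the TSS, 14 and 20 of the 47 genes carried a DRIP peak in the 2 NT libraries. The counts were 21 and 36 after 5 min of CPT and 23 and 42 after 60 min. The CPT counts did not overlap the NT counts at either time. The mean differed from NT by 11.5 genes at 5 min (28.5 ± 10.6 against 17 ± 4.24, SD, n = 2) and by 15.5 genes at 60 min (32.5 ± 13.4). Both gave p = 0.333 in an exact two-sided permutation test, which is the smallest p that this test can give with 2 libraries against 2, so it cannot pass 0.05 for any comparison of treatments here. Across all coding genes the share with a TSS peak was 21.2% and 36.1% in NT, 22.7% and 41.3% at 5 min and 34.5% and 52.8% at 60 min. Of 50 other repair genes listed for comparison, 14 and 27 carried a TSS peak in NT, 20 and 34 at 5 min and 30 and 46 at 60 min. Replicate 2, with the longer list, exceeded replicate 1 in each treatment.

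**Figure D1:**
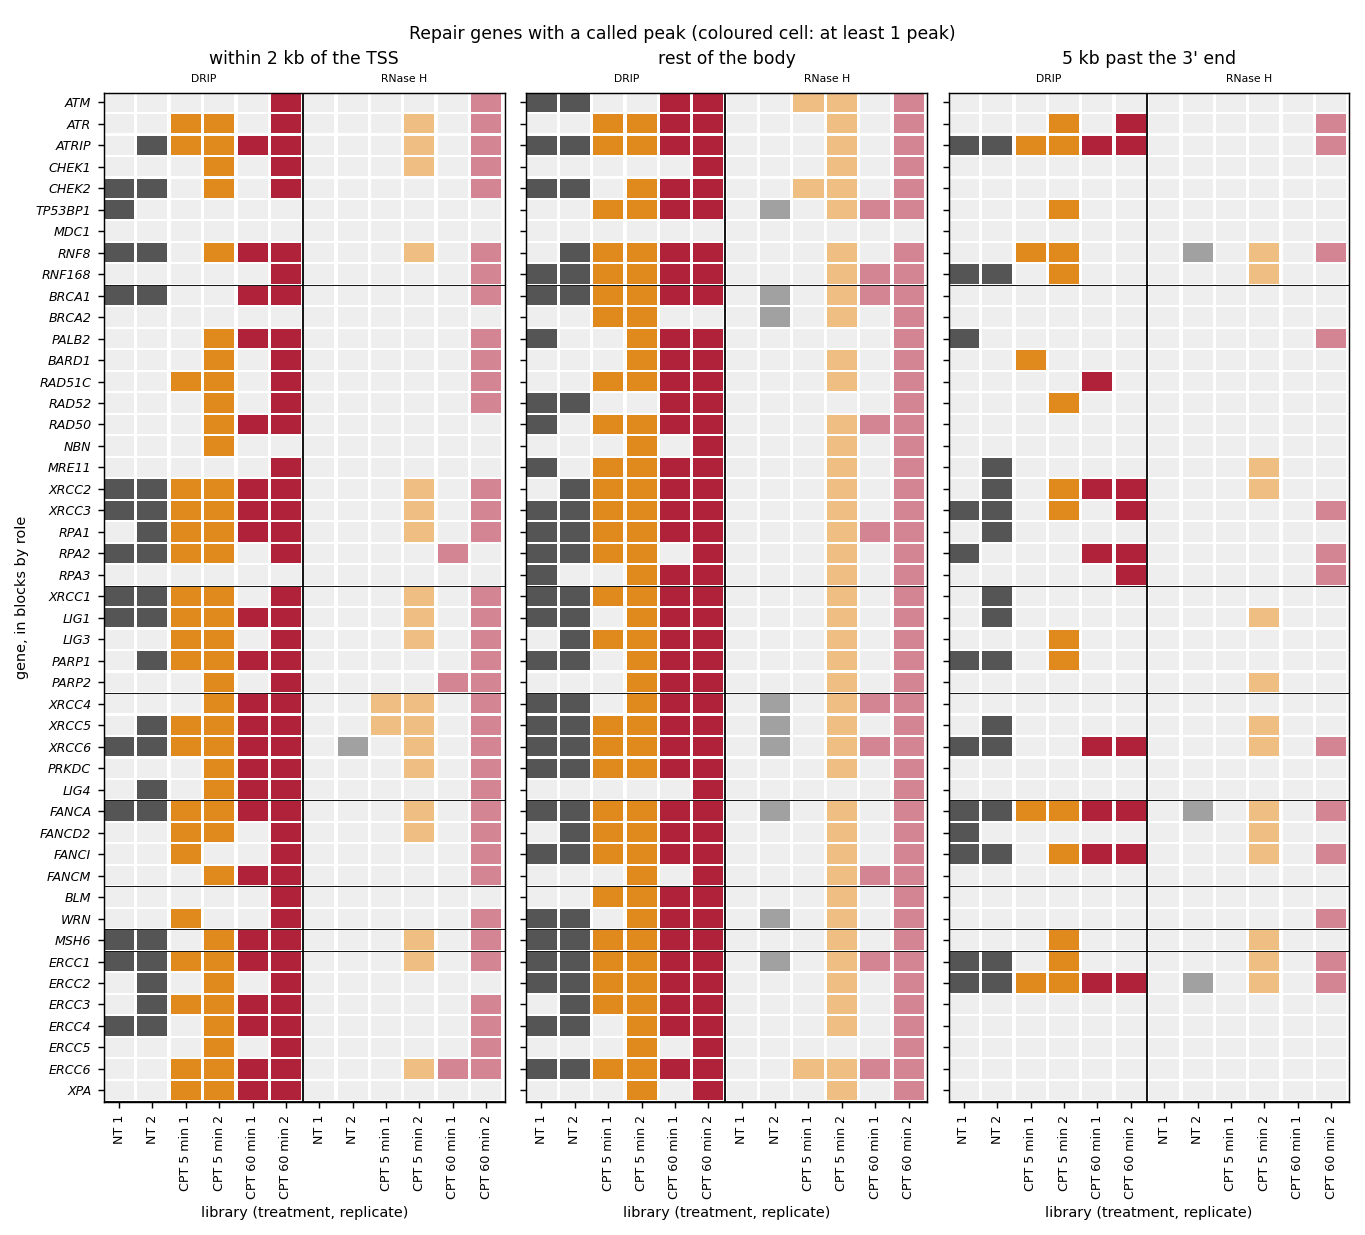
Presence of a called peak at the 47 repair genes (rows, in blocks by role) in the 6 DRIP and 6 RNase H libraries (columns), for the TSS, body and 3′ windows; coloured cells mark at least 1 peak, paler colours the RNase H libraries. The TSS columns fill from 14 and 20 genes in NT to 23 and 42 at CPT 60 min, and the 2 filled RNase H columns are replicate 2 of both CPT treatments.

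Counted in both replicates, 13 genes had a TSS peak in NT (27.7%, against 19.7% of all coding genes), 19 at 5 min (40.4% against 21.0%) and 23 at 60 min (48.9% against 33.4%). The share of repair genes lay above that of all genes in each treatment, and whether the difference exceeds what their length or base composition gives was not tested. In the body the counts were 24 genes in NT (51.1% against 33.3%), 28 at 5 min (59.6% against 35.3%) and 38 at 60 min (80.9% against 48.7%). Past the 3′ end they were 9 in NT (19.1% against 17.9%), 4 at 5 min (8.51% against 11.6%) and 7 at 60 min (14.9% against 19.9%), close to or below the background.

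In the body, 28 and 29 genes carried a peak in NT, 28 and 42 at 5 min and 38 and 45 at 60 min. The 60 min libraries lay above both NT libraries, by 13 genes on average (41.5 ± 4.95 against 28.5 ± 0.707, SD, n = 2, exact two-sided permutation p = 0.333). The shares over all coding genes did not overlap either, with 38.9% and 49.7% in NT and 51.6% and 64.9% at 60 min. At 5 min replicate 1 equalled NT replicate 1, and the mean difference of 6.5 genes rested on replicate 2 (exact permutation p = 1). Past the 3′ end, 12 and 15 genes carried a peak in NT, 5 and 15 at 5 min and 8 and 10 at 60 min. The 60 min counts lay below both NT counts (9 ± 1.41 against 13.5 ± 2.12, SD, n = 2, exact permutation p = 0.333). Of the 35 genes of 30 kbp or longer, 7 and 11 carried a peak past the 3′ end in NT and 5 and 6 at 60 min. All coding genes of that length moved in the same direction, from 12.7% and 20.6% in NT to 9.78% and 17.3% at 60 min, and those under 30 kbp in the other, from 25.2% and 35.6% to 29.8% and 42.5%. Of the 12 repair genes under 30 kbp, 5 and 4 carried such a peak in NT and 3 and 4 at 60 min.

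**Figure D2:**
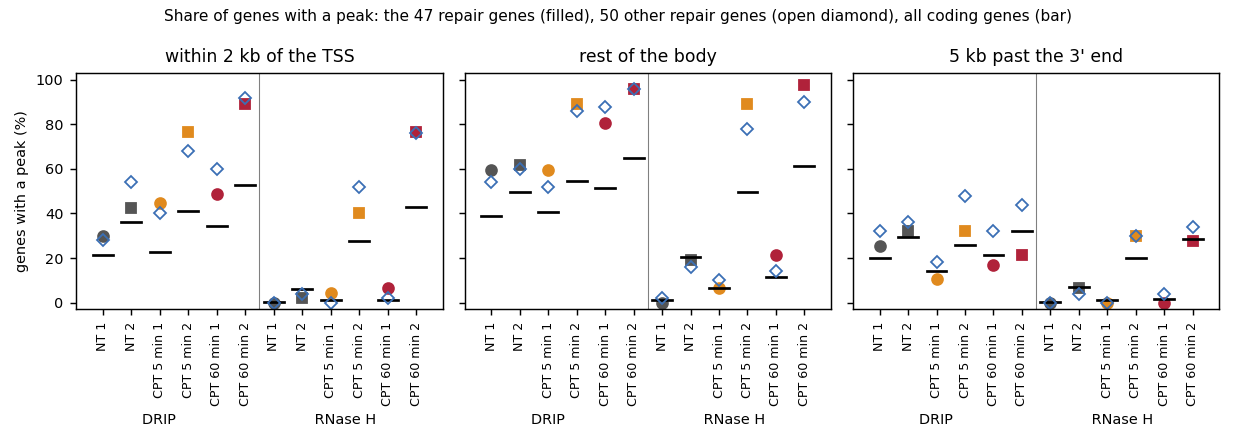
Share of genes (%, y axis) with a peak in each library (x axis) for the TSS, body and 3′ windows; filled points are the 47 repair genes (circle, replicate 1; square, replicate 2), open diamonds 50 other repair genes and bars all coding genes. At the TSS and in the body the repair genes lie above the bar in all 6 DRIP libraries, and past the 3′ end they lie below it at CPT 60 min.

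Peaks on the repair genes lay nearer the TSS after 60 min of CPT than in NT. This measure was chosen after the data were seen and is given as a description. Of all transcript bases of the 47 genes under a DRIP peak, 67.8% and 62.7% lay within the first 20 kbp of the TSS in NT, 69.9% and 59.6% at 5 min, and 91.9% and 91.1% at 60 min. The 60 min libraries differed from NT by 26.3 percentage points (91.5% ± 0.589 against 65.3% ± 3.58, SD, n = 2, exact two-sided permutation p = 0.333), and the difference was 24.1 and 28.4 points in the separate replicates. At 5 min the replicates moved in opposite directions. All coding genes showed a shift of the same sign, from 63.4% and 62.7% in NT to 86.2% and 87.5% at 60 min, as did the 50 other repair genes, from 71.5% and 73.6% to 93.9% and 95.1%.

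The shift had 2 parts. In the first 10 kbp, 6.66% and 11.2% of the bases of the repair genes lay under a peak in NT and 15.6% and 42.1% at 60 min. From 10 to 20 kbp the shares were 5.28% and 7.16% in NT and 5.69% and 15.1% at 60 min. Beyond 30 kbp they were lower at 60 min, 0.388% and 1.01%, than in NT, 1.12% and 2.10%. At 5 min the first 10 kbp held 7.18% and 16.4%, and from 10 to 20 kbp the shares were 1.31% and 5.48%, with replicate 1 below both NT libraries.

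**Figure D3:**
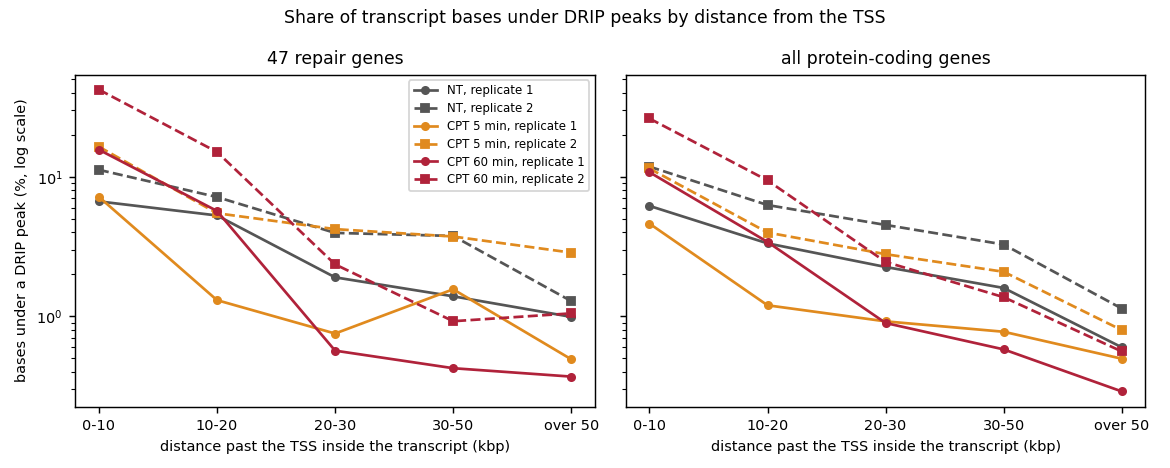
Share of transcript bases under a DRIP peak (%, log scale) in bins of distance past the TSS (kbp), for the 47 repair genes (left) and all coding genes (right); lines join the bins of a library, solid for replicate 1 and dashed for replicate 2. The 60 min lines start highest within their replicate, 15.6% and 42.1% in the first 10 kbp, and cross below the NT lines past 20 kbp.

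The same direction was seen in counts of genes among the 35 longer than 30 kbp, though not at every gene. A DRIP peak lay in the first 20 kbp of 10 and 13 of them in NT, 17 and 28 at 5 min and 29 and 33 at 60 min. The counts at both times lay above NT in each replicate (mean difference 11 and 19.5 genes, n = 2, exact permutation p = 0.333 for each). All 8284 coding genes longer than 30 kbp shifted the same way, with a peak in the first 20 kbp of 22.7% and 38.4% in NT, 32.5% and 49.3% at 5 min and 48.6% and 63.6% at 60 min. The shares of the repair genes were 28.6% and 37.1% in NT and 82.9% and 94.3% at 60 min. Beyond 30 kbp, 16 and 18 of them carried a peak in NT, 14 and 25 at 5 min and 10 and 14 at 60 min. Of the 8284 coding genes of that length, 2896 and 3506 did in NT, 3052 and 4122 at 5 min and 2365 and 3018 at 60 min, also fewer at 60 min than in NT in each replicate. Peaks beyond 30 kbp were called in both NT lists and neither 60 min list at *XRCC1*, *LIG1*, *RNF168* and *RPA1* (11.4%, against 5.72% of all coding genes longer than 30 kbp), and none of the 35 genes showed the opposite pattern (background 2.75%). *XRCC4*, *XRCC5*, *PRKDC*, *FANCA*, *WRN* and *ERCC6* kept such a peak in both lists of NT and of 60 min. *RPA3* had no peak in its first 20 kbp in any list. Beyond 30 kbp its peaks covered 420 and 0 bp in NT and 1495 and 5520 bp at 60 min. *BRCA2* had no DRIP peak in its first 20 kbp in NT or at 60 min.

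*PRKDC*, the catalytic subunit of DNA-dependent protein kinase (187025 bp), had no base of its first 20 kbp under a DRIP peak in either NT library. There, 852 and 4062 bp were covered at 5 min and 5105 and 11114 bp at 60 min. *RAD51C*, a gene of homologous recombination (43010 bp), went from 0 and 0 bp in NT to 2339 and 3013 bp at 5 min and 3961 and 9837 bp at 60 min. *ATR*, the kinase that responds to single-stranded DNA (129499 bp), had 0 and 0 bp in NT, 981 and 845 bp at 5 min and 1159 and 5844 bp at 60 min. At these 3 genes both CPT times exceeded NT in both replicates, and coverage was higher in the later pair. RNase H peaks covered part of the same stretches in replicate 2 alone, over 3984 and 8166 bp at 5 and 60 min at *PRKDC*, 584 and 5541 bp at *RAD51C* and 592 and 2528 bp at *ATR*. *LIG1*, the replicative DNA ligase (54900 bp), showed both sides of the shift. Its first 20 kbp held 1759 and 2544 bp under peaks in NT and 4186 and 9200 bp at 60 min, while beyond 30 kbp it held 3543 and 7101 bp in NT, 0 and 2141 bp at 5 min and none in either library at 60 min. The RNase H library of CPT 60 min replicate 2 covered 6982 bp of the first 20 kbp of *LIG1*.

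RNase H digestion was the control for hybrid specificity. At the TSS, 0 and 1 of the 47 genes carried a peak in the RNase H lists of NT, 2 and 19 at 5 min and 3 and 36 at 60 min. The DRIP count was higher in all 6 pairs (26 ± 10.7 against 10.2 ± 14.5, SD, n = 6, p = 0.037 in an exact two-sided permutation test within treatments). The difference was 17.7 genes in replicate 1 and 14 in replicate 2, where an exact test cannot go below p = 0.25. In the body the RNase H counts were 0 and 9 in NT, 3 and 42 at 5 min and 10 and 46 at 60 min (exact permutation p = 0.102), so that in replicate 2 of both CPT treatments the RNase H count equalled or exceeded the DRIP count. Past the 3′ end the RNase H counts were 0 and 3, 0 and 14, and 0 and 13 (exact permutation p = 0.167).

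At the level of peaks, none of the 92 DRIP peaks on the repair genes in NT replicate 1 met an RNase H peak of the same sample, and 8 of 137 (5.84%) did in NT replicate 2. In replicate 1, 2 of 90 (2.22%) did so at 5 min and 3 of 148 (2.03%) at 60 min. In replicate 2 these were 80 of 274 (29.2%) and 163 of 316 (51.6%). Over all DRIP peaks of the genome the shares were 0.445% and 10.8% in NT, 2.79% and 33.0% at 5 min and 1.70% and 49.0% at 60 min, so the CPT values at the repair genes lay near the background. The RNase H library of CPT 60 min replicate 2 also carried 87.9% of its covered bases in the first 20 kbp of these genes. The contribution of material resistant to the enzyme to the replicate 2 counts was not tested. With those overlapping DRIP peaks removed, 90.9% and 79.1% of the covered bases lay in the first 20 kbp at 60 min, against 67.8% and 60.0% in NT.

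Among the signalling genes (9), the TSS counts were 3 and 3 in NT, 2 and 5 at 5 min and 2 and 7 at 60 min. *ATRIP*, the partner that brings ATR to RPA-coated DNA, carried a TSS peak in each DRIP list but NT replicate 1, and with *FANCA* and *ERCC2* it was among the 3 genes with a peak past the 3′ end in all 6. *ATR* had none in NT at the TSS and a peak in both libraries at 5 min, at percentiles 68.5 and 82.0, where the percentile is the rank of the fold enrichment among the peaks of that list and 100 is the highest. At 60 min *ATR* had a TSS peak in replicate 2 only. In its body *ATR* had a peak in both libraries of both CPT times and in neither NT library. *ATM*, the kinase activated by double-strand breaks (146036 bp), had a TSS peak in CPT 60 min replicate 2 only, and its body peaks covered 430 and 1106 bp in NT, none at 5 min and 1322 and 2901 bp at 60 min. The RNase H lists held an *ATM* body peak in both replicates at 5 min, where neither DRIP list did. *TP53BP1*, which binds chromatin beside breaks, had body peaks of 2492 and 1466 bp at 5 min and 1455 and 3333 bp at 60 min and none in NT. Its only TSS peak was in NT replicate 1. In the *TP53BP1* body, the RNase H library of NT replicate 2 covered 1041 bp beyond 30 kbp, where neither NT DRIP list held a peak. Both RNase H lists of 60 min also held a peak in that body.

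*MDC1*, the scaffold that binds phosphorylated H2AX (chr6:30667584-30685058), could not be assessed. No list of the 12 held a peak between 28455352 and 33484435 on chromosome 6, a stretch of 5029082 bp that contains 179 coding genes whole. The lack of a peak is therefore no measurement of *MDC1*, and 46 genes were assessable. The counts, shares, medians and correlations given here still keep *MDC1* among the repair genes, as a gene without a peak. The backgrounds of all coding genes likewise keep the 179 genes of that stretch.

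Of the 14 recombination genes, 4 and 5 carried a TSS peak in NT, 5 and 10 at 5 min and 6 and 11 at 60 min. *XRCC3*, which acts in homologous recombination (chr14:104163954-104181788, minus strand), had a TSS peak in all 6 DRIP lists and the highest minimum percentile of the 47 genes, with percentiles of 92.2 and 99.5 in NT, 91.3 and 97.6 at 5 min and 98.4 and 97.8 at 60 min. All 6 libraries began its peak at the same Hind III site, at position -1610. The body of *XRCC3* was covered over 13548 and 15834 bp in NT, 1278 and 6056 bp at 5 min and 2617 and 10831 bp at 60 min. Coverage of the gene body was thus lower in each CPT library than in both NT libraries, while a peak reached the TSS window in each. The summit lay in that window in both libraries of each CPT time and in neither NT library. The NT percentiles at the TSS thus belong to peaks with their summit outside the window. In NT replicate 2 this peak was a block of 22283 bp over the whole gene. *XRCC3* shares its TSS window with the divergent *ZFYVE21*, and the peaks cannot be assigned to one strand.

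*BRCA1*, the ubiquitin ligase that acts with BARD1 in recombination, was the only gene to lose its TSS peak at 5 min. It covered 358 and 623 bp in NT, none at 5 min and 967 and 2011 bp at 60 min. The NT peaks were not at the same place, from -230 to 127 bp of the TSS in replicate 1 and from -1869 to -1247 bp in replicate 2, and with a window of 1 kbp on each side no gene was lost. *BRCA2*, a mediator of homologous recombination, had no peak in the TSS window in any of the 12 lists, and the nearest peaks left a gap of 25392 bp around its TSS. *BRCA2* had body peaks at 5 min, over 384 and 3197 bp, and in neither NT nor 60 min library, but RNase H lists of NT and CPT replicate 2 also covered 297 to 4150 bp of it. Its DRIP peaks at 5 min were not at the same place. Replicate 1 covered 384 bp of the first 20 kbp and 0 bp beyond 30 kbp, and replicate 2 covered 0 and 2548 bp. *RPA3*, the small subunit of replication protein A, had no TSS peak either and a gap of 107378 bp. *BARD1*, the partner of BRCA1, had no body peak in NT, 0 and 2293 bp at 5 min and 336 and 5672 bp at 60 min. *RAD52*, which anneals single strands, had body peaks over 418 and 756 bp in NT, none at 5 min and 923 and 6289 bp at 60 min. The NT peaks of *RAD52* were not at the same place either. Replicate 1 covered 0 bp of the first 20 kbp and 0 bp beyond 30 kbp, and replicate 2 covered 298 and 458 bp.

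*PALB2*, the bridge between BRCA1 and BRCA2, had no TSS peak in NT, 0 and 259 bp at 5 min and 406 and 3242 bp at 60 min. *RAD50*, a subunit of the MRE11 complex that holds broken ends, had none in NT, 0 and 709 bp at 5 min and 397 and 1246 bp at 60 min. No RNase H list held a peak at the *RAD50* TSS, whereas the one of CPT 60 min replicate 2 covered 1192 bp at *PALB2*.

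In single-strand break and base excision repair (5 genes), TSS peaks were found at 2 and 3 genes in NT, 4 and 5 at 5 min and 2 and 5 at 60 min. *LIG1* carried one in all 6 lists, at percentiles of 88.0 and 99.0 in NT, 83.6 and 90.1 at 5 min and 98.7 and 96.6 at 60 min. *LIG3*, the ligase that works with XRCC1, had a TSS peak in both libraries at 5 min and in replicate 2 at 60 min. *PARP1*, the sensor of single-strand breaks, lost its peak past the 3′ end, which covered 1029 and 1081 bp in NT, 0 and 511 bp at 5 min and none at 60 min. Its body coverage was 361 and 2634 bp in NT and 2925 and 9364 bp at 60 min. *PARP2*, its paralog, had no body peak in NT, 0 and 1073 bp at 5 min and 293 and 5316 bp at 60 min, and its TSS was covered in both RNase H libraries at 60 min. *RNF168*, a ubiquitin ligase of break signalling, and *ERCC1* behaved like *PARP1* past the 3′ end, so that 3 genes lost a 3′ peak at 60 min (6.38%, against a background of 2.08%) and none gained one (background 3.72%). The 3′ window of *ERCC1* also holds the TSS of *POLR1G* and of *PPP1R13L*, so its peak cannot be assigned to *ERCC1* alone. At 5 min *RNF8*, another ubiquitin ligase of break signalling, gained a 3′ peak (2.13% against 1.43%) and *XRCC6* lost one (2.13% against 2.93%).

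All 5 end joining genes carried a TSS peak in both 60 min libraries, against 1 and 3 in NT and 2 and 5 at 5 min. Of all coding genes, 33.4% carried one in both 60 min libraries. In the RNase H lists the counts of the 5 genes were 0 and 1 in NT, 2 and 4 at 5 min and 0 and 5 at 60 min. The control of replicate 2 at 60 min thus held as many as its DRIP list. *XRCC6*, which encodes the Ku70 subunit of the end-binding Ku dimer, had one in all 6 lists, at percentiles of 92.5 and 94.9 in NT, 88.7 and 99.2 at 5 min and 98.9 and 99.5 at 60 min. *XRCC4*, the scaffold of ligase IV, had no TSS peak in NT or in CPT 5 min replicate 1, and one at percentile 88.2 and 99.7 at 60 min. RNase H lists also held a peak there, in replicate 1 and 2 at 5 min and replicate 2 at 60 min. *XRCC5*, the Ku80 subunit, had TSS peaks over 0 and 334 bp in NT, 2307 and 3049 bp at 5 min and 1362 and 3049 bp at 60 min, and RNase H peaks over 323 and 1989 bp at 5 min. *PRKDC* had no TSS peak in NT, 0 and 2775 bp at 5 min and 623 and 3731 bp at 60 min. *XRCC4* and *PRKDC* share their TSS windows with *TMEM167A* and *MCM4*. In CPT 60 min replicate 1, DRIP peaks covered 0 bp of the first 20 kbp of the *XRCC4* transcript, so its TSS peak lay upstream.

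Of the 4 Fanconi genes, 1 and 1 carried a TSS peak in NT, 3 and 3 at 5 min and 2 and 4 at 60 min. *FANCA*, a core complex subunit (chr16:89803957-89883055, minus strand), was the one in NT, where its TSS peak ranked low, at percentiles 38.8 and 19.4. At 5 min it ranked at 97.9 and 96.1 and at 60 min at 91.6 and 96.8, above NT in all 4 CPT libraries. The peak covered 532 and 916 bp of the TSS window in NT and 2482, 2482, 2482 and 2684 bp in the CPT libraries. Beyond 30 kbp, *FANCA* coverage was 4342 and 14804 bp in NT, 2666 and 11386 bp at 5 min and 387 and 3086 bp at 60 min, lower in each replicate with time. *FANCD2*, the subunit that is ubiquitinated at crosslinks, had no TSS peak in NT and peaks over 1297 and 2099 bp at 5 min. *FANCM*, the translocase that recognises stalled forks, had one over 359 and 1501 bp at 60 min and none in NT. In replicate 1 this *FANCM* peak lay upstream, with 0 bp of the first 20 kbp of the transcript covered.

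**Figure D4:**
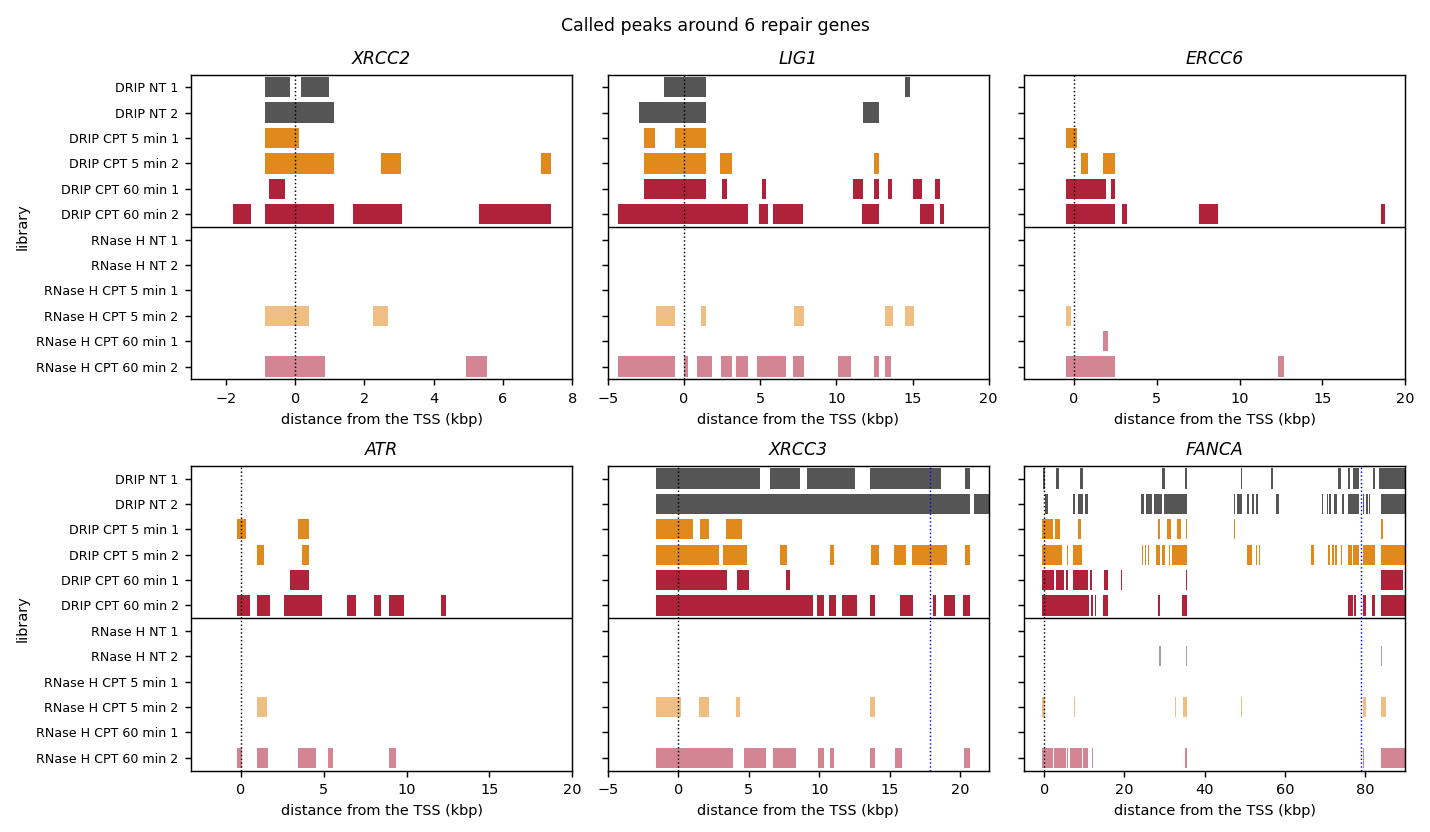
Called peaks (blocks) in the 6 DRIP and 6 RNase H libraries (rows) by distance from the TSS (kbp, transcription to the right) at 6 repair genes; black dotted lines mark the TSS and blue ones the 3′ end where it is in range. Peaks of *ATR* and *ERCC6* near the TSS appear in the CPT libraries only, *XRCC3* is covered through its body in NT, and whole blocks with the same borders recur in several libraries.

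The helicase genes *BLM* and *WRN* lacked a TSS peak in NT. Both had one in CPT 60 min replicate 2, and *WRN* also had one in CPT 5 min replicate 1. *BLM*, which dissolves recombination intermediates, had no body peak in NT and 468 and 452 bp at 5 min and 820 and 2751 bp at 60 min. *MSH6*, the mismatch recognition subunit, had a TSS peak in all lists but CPT 5 min replicate 1, at percentiles of 89.2 to 96.4.

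The 7 nucleotide excision repair genes had TSS peaks at 2 and 4 genes in NT, 4 and 7 at 5 min and 5 and 7 at 60 min. *ERCC1*, the partner of XPF (chr19:45910592-45927175, minus strand), had one in all 6 lists, at percentiles of 74.9 and 98.6 in NT, 96.1 and 98.5 at 5 min and 98.8 and 99.2 at 60 min. Its body was covered over 9629 and 14102 bp in NT, 6154 and 13776 bp at 5 min and 13794 and 14204 bp at 60 min, in a transcript of 16584 bp. The RNase H lists of CPT replicate 2 covered 12931 and 13320 bp of the same body. *ERCC6* and *XPA*, the damage verification factor (chr9:100437191-100459622, minus strand), were the 2 repair genes with no TSS peak in NT and one in both libraries at both CPT times. At *ERCC6* the peaks covered 659 and 634 bp at 5 min and 2400 and 2458 bp at 60 min, and at *XPA* 366 and 299 bp and then 723 and 1283 bp. *XPA* had no RNase H peak at its TSS in any library, while *ERCC6* had one in CPT 5 min replicate 2 and in both replicates at 60 min. *ERCC2*, the XPD helicase, was the third gene with a 3′ peak in all 6 lists, over 4983 and 5000 bp in NT and 3023 and 3067 bp at 60 min.

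At the TSS, 6 genes gained one at 5 min (12.8%, against 4.34% of all coding genes), *ATR*, *RAD51C*, *LIG3*, *FANCD2*, *ERCC6* and *XPA*. *BRCA1* alone lost one (2.13% against 1.66%). At 60 min 7 gained one (14.9% against 8.17%), *PALB2*, *RAD50*, *XRCC4*, *PRKDC*, *FANCM*, *ERCC6* and *XPA*, and none lost one (background 0.972%). In the body, 5 gained a peak at 5 min (10.6% against 5.51%), *ATR*, *BRCA2*, *RAD51C*, *TP53BP1* and *BLM*, and *ATM* and *RAD52* lost theirs (4.26% against 2.88%). These calls count any peak in the window, and those of *BRCA2* and *RAD52* rested on peaks at different places in the 2 replicates. At *ATM* both RNase H lists of 5 min held a body peak, and at *TP53BP1* both of 60 min did. At 60 min 6 gained one (12.8% against 10.1%), *ATR*, *BARD1*, *RAD51C*, *PARP2*, *TP53BP1* and *BLM*, and none lost one (background 1.61%). The comparisons at 5 and 60 min share the NT libraries. The body share at 60 min was near the background. Of the 50 other repair genes, 4 and 7 gained a TSS peak at 5 and 60 min and none lost one, and 7 and 10 gained a body peak.

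With a −log10 q of at least 3, the TSS gains at 5 min were 3, *ATR*, *RAD51C* and *FANCD2*, and *ERCC6* and *XPA* remained gained at 60 min. When the DRIP peaks that overlapped one from the RNase H library were removed, 4 of the TSS gains at 5 min remained, *RAD51C*, *FANCD2*, *ERCC6* and *XPA*, so that *ATR* and *LIG3* no longer counted as gained. Of the TSS gains at 60 min 4 remained, *PALB2*, *RAD50*, *PRKDC* and *XPA*. Of the 47 genes, 15 share their TSS window with the TSS of another coding gene, among them *PALB2* with *DCTN5*, *RAD51C* with *TEX14* and *FANCM* with *FKBP3*. Without these 15, the gains at 60 min were *RAD50*, *ERCC6* and *XPA*. With a TSS window of 1 kbp on each side, the gains at 60 min were *ATRIP*, *PRKDC*, *ERCC6* and *XPA*. *PALB2*, *RAD50*, *XRCC4* and *FANCM* then no longer counted as gained.

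The number of DRIP lists with a TSS peak, from 0 to 6, was higher in the repair genes with more G+C. *MDC1*, which could not be assessed, was kept here with a count of 0. The G+C content of the first 1 kbp past the TSS had a median of 52.2% in the 16 genes with a peak in 0 to 2 lists, 52.7% in the 15 with 3 or 4 and 58.2% in the 16 with 5 or 6. Over all coding genes these medians were 55.3%, 59.8% and 63.1%. Across the 47 genes, which are not independent replicates, Spearman's rho with the number of lists was 0.492 for G+C content, 0.361 for the length of the restriction fragment that holds the TSS and 0.297 for GC skew, the excess of G over C on the coding strand. The fragment with the TSS had a median of 1186 bp in the first class and 2008 bp in the last. Of the 18 repair genes in the shortest quartile of fragments (up to 1196 bp), 2 had a TSS peak in 5 or 6 lists and 7 in 0 or 1, and of the 6 in the longest quartile (from 2936 bp) 4 and 0 did. Over all coding genes 7.26% and 39.9% of these quartiles had a peak in 5 or 6 lists. The separate parts of base composition and fragment length were not tested.

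**Figure D5:**
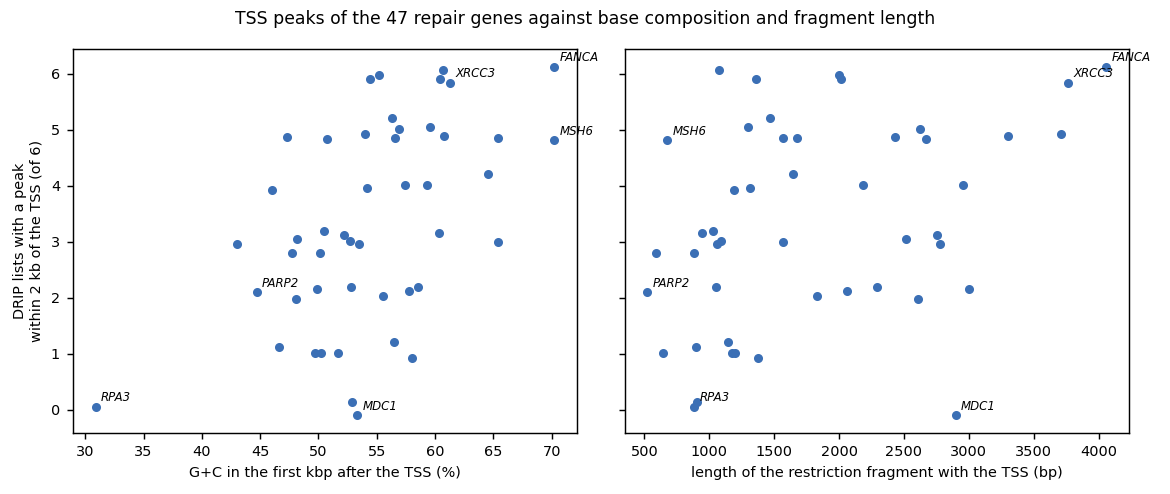
Number of DRIP lists (of 6, y axis, spread vertically for visibility) with a TSS peak for each of the 47 repair genes against G+C content of the first 1 kbp (%, left) and the length of the restriction fragment that holds the TSS (bp, right). *RPA3*, with the lowest G+C content, 30.9%, had none, and *FANCA*, at 70.2%, had 6. *MDC1*, which could not be assessed, is counted as having none.

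The intronic stretch of 100 bases with the largest excess of G over C in the first 1 kbp is shown for *LIG1* (6 lists), *TP53BP1* (1 list) and *RPA3* (0 lists). The sequences are on the coding strand of GRCh37, 5′ to 3′, with runs of GGG or longer in capitals. The stretches were searched on the coding strand alone, with runs counted without overlap.
LIG1, chr19:48673026-48673125, minus strand: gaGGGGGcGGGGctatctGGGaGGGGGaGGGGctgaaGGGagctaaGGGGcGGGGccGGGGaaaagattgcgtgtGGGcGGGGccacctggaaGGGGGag
TP53BP1, chr15:43784901-43785000, minus strand: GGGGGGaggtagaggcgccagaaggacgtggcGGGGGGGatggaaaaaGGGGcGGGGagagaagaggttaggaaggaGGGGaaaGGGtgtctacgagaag
RPA3, chr7:7757453-7757552, minus strand: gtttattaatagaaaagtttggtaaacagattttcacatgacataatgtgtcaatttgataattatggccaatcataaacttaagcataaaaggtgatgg

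*LIG1* held 12 runs in its stretch, with 58 G and 14 C. The same search was made in the first 1 kbp of 17891 coding genes with an intronic stretch of that length. As many runs were held by 1.48% of them, in their own stretch with the largest excess of G over C. *TP53BP1* held 6 runs, which 42.7% of the searched genes reach, with 55 G and 8 C, an excess of G over C that 2.05% of them reach. *RPA3* held none. *TP53BP1* thus combined such a stretch with a TSS peak in NT replicate 1 only, and its TSS lies on a fragment of 1196 bp, against 2014 bp for *LIG1*. Across all 47 genes the median skew was 0.150 in the genes with 5 or 6 lists, 0.0388 in those with 3 or 4 and 0.0810 in those with 0 to 2. Over all coding genes the medians were 0.0652, 0.0519 and 0.0382 in the same order, so skew followed the classes there but not among the repair genes.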

How the data were processed

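Per the labels and methods, the authors aligned reads with BWA to hg19 and a yeast spike-in genome, removed blacklisted regions and duplicates, and called narrow peaks with MACS2 in each DRIP and RNase H library against its input, without pooling replicates. The calling threshold is not given in the sources used here. The methods describe a detachment and washing step between treatment and lysis, and fragmentation with 5 restriction enzymes. The deposited peak lists give an integer score, the fold enrichment (a ratio over background), and the −log10 p and −log10 q that the authors' peak caller wrote, and other columns hold positions and summits. The lists carry no read counts, and the library depths that the study tabulates were not used here, so no counting interval is given. The number of libraries, 2 per treatment, limits the precision.

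Gene models were MANE Select transcripts of GENCODE release 44 lifted to GRCh37. Presence of a peak was counted per window and library, and fold enrichment was used only as a rank within its own list. Treatments were compared by an exact two-sided permutation test of the 2 libraries against 2, and DRIP with RNase H libraries by exact permutation within treatments, whose smallest p is 0.00926. Named genes were those gained or lost at the TSS or in the body, the 5 with the highest minimum within-list percentile at the TSS, the 3 with most body bases covered, those without a DRIP peak and those with an RNase H peak at the TSS in both replicates. *ATRIP*, *ERCC2*, *ERCC4*, *MSH6*, *RNF8*, *RNF168*, *PARP1*, *RPA1*, *RPA3*, *WRN*, *XRCC1* and *FANCA* at its TSS were chosen after their values were seen. The 47 genes, the 50 other repair genes and the tests were chosen with earlier results of these data known. The labels number the replicates but do not say whether a number pairs the treatments, so the main tests took the treatments as unpaired. Replicate 2 had the longer list in each treatment, for DRIP and for RNase H. A DRIP and an RNase H library of one number and treatment came from the same digested DNA. Window counting was tested on simulated data and recovered 100% of 207181 windows with a simulated peak. Each simulated peak lay at the centre of its window, so this checks only that the counting ran correctly. Alternatives were a stricter q, lists of equal size, summits, other windows and gene ends, removal of peaks met by RNase H peaks, of genes with a shared TSS window and of *MDC1*, and each replicate left out. Python 3.11.15, NumPy 2.4.6, pandas 2.3.3, SciPy 1.17.1 and Matplotlib 3.10.9 were used.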

Additional observations from a re-analysis of the deposited data

How the results depend on the processing

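Of 215 alternative values, 177 kept their direction and their side of the threshold or moved little. For differences between treatments the exact test cannot pass the threshold, so only a change of direction could show there. Leaving out *MDC1*, which has no peak in any list, could not move a value. The number 177 is therefore no measure of robustness. With ends of the gene record the DRIP count at the TSS exceeded the RNase H count by 14.2 genes (exact permutation p = 0.0648), and within single replicates by 14 to 17.7. With lists of equal size the DRIP excess was 30.3 genes in the body and 8 past the 3′ end (exact permutation p = 0.00926 for each). At 5 min several directions turned. Past the 3′ end the difference from NT was 0.5 genes without genes that share a TSS window. The share of covered bases in the first 20 kbp differed from NT by 2.19 points with −log10 q of at least 3, 2.94 with equal lists, 2.30 with the gene record and 13.6 for the first 10 kbp, and from -3.12 to 2.12 in single replicates. Genes with a peak beyond 30 kbp differed by -2 to 7 in single replicates. TSS gains at 5 min numbered 3 with the stricter q and 13 to 17 in single replicates. TSS losses at 5 min were 0 with the gene record or a 1 kbp window, 4 without peaks met by RNase H peaks and 1 to 6 in single replicates. Body gains at 5 min were 3 with the stricter q, with equal lists and without shared windows, and 10 to 15 in single replicates, and body losses 1 with the gene record and without shared windows, and 2 to 10. TSS gains at 60 min were 4 with a 1 kbp window, 4 without peaks met by RNase H peaks, 3 without shared windows and 13 to 22 in single replicates, and losses 1 with equal lists, 1 without peaks met by RNase H peaks and 0 to 4. Body gains at 60 min were 11 to 16 and losses 0 to 1 in single replicates. The causes were not tested.

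With the replicate number as a block, the differences from NT were the same, with exact p of 0.5 or 1, and DRIP against RNase H gave exact p = 0.03125 at the TSS, 0.125 in the body and 0.09375 past the 3′ end; no call changed. Across the genes, the deviations of same-numbered libraries correlated at -0.245 to 0.253. A correlation leaves out a shift common to all genes, so it cannot show whether the longer lists of replicate 2 pair the treatments.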
